A study of Mus musculus with 6 samples.

Results

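The lysosomal cathepsins described here are the 8 genes Ctsa, Ctsb, Ctsc, Ctsd, Ctsh, Ctsl, Ctss and Ctsz, found by their symbols in the probe annotation. The array held 14 probes for them among 16281, and all 8 genes were present, 8 of the 10698 genes with a symbol. Of these probes, 11 gave a ratio on every array, so 7 of the 8 genes were among the 8331 genes tested, and Ctsz was not. The study compared untreated RAW 264.7 cells, a virus-transformed mouse macrophage line, with the same line treated for 1 h with LPS (lipopolysaccharide of the bacterial outer membrane, 100 ng/ml) and LBP (LPS-binding protein, which carries LPS to its receptor, 100 pM). Each of 6 arrays of 2 colours carried total RNA of treated and of untreated cells. On 3 arrays the treated RNA was in the red dye Cy5 and on the other 3 in the green dye Cy3, and each orientation was numbered as sets 1 to 3. No separate cultures are named, so a p-value here covers the spread among these arrays, which may be only technical.

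Values are log2 ratios of treated over untreated RNA, so that 1 is a doubling, and the Cy3 arrays were turned to run the same way. The sign assumes that the deposited ratio is Cy5 over Cy3, which is likely because, per the labels, the test sample is the one in Cy5. Under that reading the LPS response gene Tnf averaged 2.44 ± 0.19 (SD, n = 3 sets). The other tested reference genes of that response, Egr1, Il1b, Ccl4 and Tnfaip3, averaged 5.13, 2.54, 2.40 and 1.70, and all 5 were called higher. The reference list held 7 genes, all on the array, of which Nfkbia and Cxcl2 were not tested. A ratio carries no level, so the members cannot be ordered by abundance, and the number of arrays limits the precision. Of the macrophage markers on the array, 13 of 13 had a ratio on every array, against 9 of 12 lymphocyte markers and 4 of 13 fibroblast and epithelial markers. The lymphocyte markers Cd4 (0.47) and Cd79a (0.20) and the macrophage marker Adgre1 (0.55) were called higher and the macrophage marker Fcgr3 (-0.21) lower. Of these 4, Adgre1 passed whichever set was omitted, and the others did not pass without set 1. Fcgr3 did not pass without set 3 either, nor Cd79a without set 2 or set 3. With zeros kept as ratios Cd4 averaged 0.14, and with incomplete probes included it averaged 0.35. Cd4, Cd79a and Fcgr3 passed in neither case. The part of these markers in the results below was not tested.

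Cathepsins are proteases that are made as inactive precursors, tagged with mannose 6-phosphate, carried to the lysosome and activated there by cleavage in acid. Ctsb, Ctsc, Ctsh, Ctsl, Ctss and Ctsz encode cysteine proteases of the papain family, Ctsd encodes an aspartic protease, and Ctsa encodes a serine carboxypeptidase. In macrophages they digest engulfed material and prepare peptides for antigen presentation, and cathepsin B has been linked to inflammasome activation after lysosome damage. Many lysosomal genes carry a CACGTG element near their start that the transcription factor TFEB can bind.

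The promoter windows of 6 members, 250 bases before to 50 after a start site, were read from RefSeq sequences of the build GRCm38.p6. No window was available for Ctsb or Ctsh, so their promoters were not searched. The letters CACGTG, which read the same on both strands, were present in windows of Ctsa, Ctsd and Ctsl. They were present in 7.15% of all 32851 windows of this length. The stretches around them are shown because they are a sequence feature that 3 members have in common, with each match in capitals.
Ctsa (chr2:164833741-164833786, plus strand): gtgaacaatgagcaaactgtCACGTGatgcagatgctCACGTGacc
Ctsd (chr7:142387900-142387945, minus strand): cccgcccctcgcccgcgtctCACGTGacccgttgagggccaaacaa
Ctsl (chr13:64370731-64370770, minus strand): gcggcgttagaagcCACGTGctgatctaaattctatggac
The first match shown lies 12, 98 and 236 bases before the start for Ctsa, Ctsd and Ctsl, and the Ctsd window holds another, not shown, 245 bases before the start. The AP-1 letters TGAGTCA, searched on both strands and held by 5.2% of all windows, were not in the 7 windows of these 6 genes. The TATA letters TATAAA (13.6%) were in 1 window, of Ctss. The letters GGGCGG, held by 35.7% of all windows, were in windows of 4 genes, Ctsc, Ctsd, Ctss and Ctsz. These matches are descriptions of the letters and not of binding.

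Of the 7 tested members, 1 rose and 0 fell (limma), and the same 1 had an unadjusted p under 0.05. Among all genes tested, 6.96% were called higher and 6.21% lower, or 13.2% in either direction, so 1 of 7 is close to the background. The gene that rose was Ctsb, which encodes cathepsin B, an endopeptidase that also trims peptides from their ends. On the Cy5 arrays (treated RNA in Cy5) its ratios were 0.37, 0.28 and 0.29 for sets 1, 2 and 3, and on the Cy3 arrays they were 0.26, 0.28 and 0.26. All 6 arrays were thus above 0, and both orientations gave nearly the same value. Over all genes, 10% were above 0 on every array. The mean was 0.29 ± 0.022 (SD, n = 3 sets), which is 1.22-fold with a 95% interval of 1.14 to 1.31 (limma, adjusted p = 0.00602). The SD over the 6 single arrays was 0.042. The rise was small beside the tested reference genes, which averaged 1.70 to 5.13. Of the 580 genes called higher, 353 had a larger ratio than Ctsb and 227 did not, and the median of those 580 was 0.34. Ctsb is represented by a single probe, number 11265. Without set 1 the mean was 0.28 and the gene no longer passed (adjusted p = 0.0662), while it passed without set 2 (0.29) and without set 3 (0.30).

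**Figure D1:**
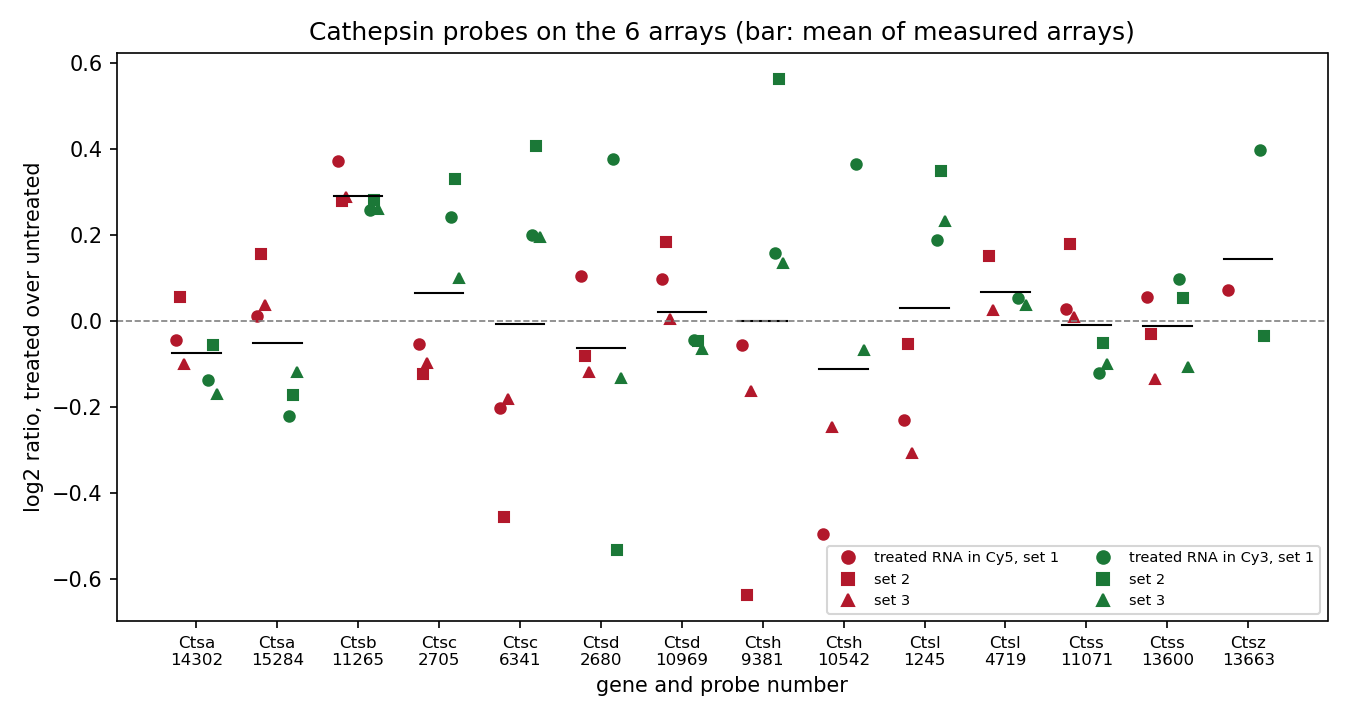
Log2 ratio of treated over untreated RNA (vertical axis) for each of the 14 cathepsin probes (horizontal axis) on the 6 arrays, in red where treated RNA carried Cy5 and in green where it carried Cy3, with the symbol giving the set and the bar the mean of the measured arrays. The Ctsb probe sits between 0.26 and 0.37 on all 6 arrays, while the red and green points of Ctsc, of Ctsh probe 9381 and of Ctsl probe 1245 lie on opposite sides of 0.

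Cathepsin C, H and L gave another pattern. Ctsc encodes dipeptidyl peptidase 1, which removes pairs of residues and activates granule proteases. Its ratios on the Cy5 arrays were -0.13, -0.29 and -0.14 for sets 1 to 3, and on the Cy3 arrays they were 0.22, 0.37 and 0.15. The orientations did not overlap and had opposite signs, and they cancelled to a mean of 0.029 ± 0.023 (95% interval -0.068 to 0.13, adjusted p = 0.685). Both of its probes showed this, with means of -0.093 and 0.22 in the 2 orientations for probe 2705 and of -0.28 and 0.27 for probe 6341.

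Ctsh encodes an aminopeptidase of the same family. On its complete probe, 9381, the ratios were -0.057, -0.64 and -0.16 on the Cy5 arrays and 0.16, 0.56 and 0.13 on the Cy3 arrays. Set 2 lay furthest from 0 in both orientations, and again the signs were opposite. The mean was -0.00059 ± 0.046 (95% interval -0.10 to 0.10, adjusted p = 0.995). Its other probe, 10542, lacked a ratio on both arrays of set 2 and gave -0.50 and -0.25 in Cy5 and 0.37 and -0.068 in Cy3 for sets 1 and 3.

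Ctsl encodes the endopeptidase cathepsin L. Probe 1245 gave -0.23, -0.054 and -0.31 on the Cy5 arrays and 0.19, 0.35 and 0.23 on the Cy3 arrays, with no overlap of the orientations. The mean was 0.029 ± 0.10 (95% interval -0.097 to 0.16, adjusted p = 0.758). Probe 4719 lacked a ratio on 2 arrays and did not show the split: it gave 0.15 and 0.024 in Cy5 for sets 2 and 3, and 0.053 and 0.037 in Cy3 for sets 1 and 3.

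The dye effect itself, the ratio of Cy5 over Cy3 with the treatment averaged out, was -0.22 ± 0.099 for Ctsc, -0.29 ± 0.27 for Ctsh and -0.23 ± 0.038 for Ctsl. On the probes measured on all arrays, Ctsc, Ctsh and Ctsl thus read lower in Cy5 whichever sample carried it. None of the 7 tested members passed the dye test on set averages, where 0.06% of all genes, 5 of 8331, did. The adjusted p was 0.119 for Ctsc, 0.206 for Ctsh and 0.114 for Ctsl (limma). Ctsa, Ctsc and Ctsl had an unadjusted p under 0.05, with 95% intervals of 0.0033 to 0.16, -0.35 to -0.083 and -0.31 to -0.14. With the 6 arrays as separate samples and a dye term, 3.32% of all genes passed, and Ctsc and Ctsl were among them (adjusted p = 0.0491 for both), while Ctsh was not (adjusted p = 0.101). For Ctsb the dye effect was 0.023 (95% interval -0.058 to 0.10).

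**Figure D2:**
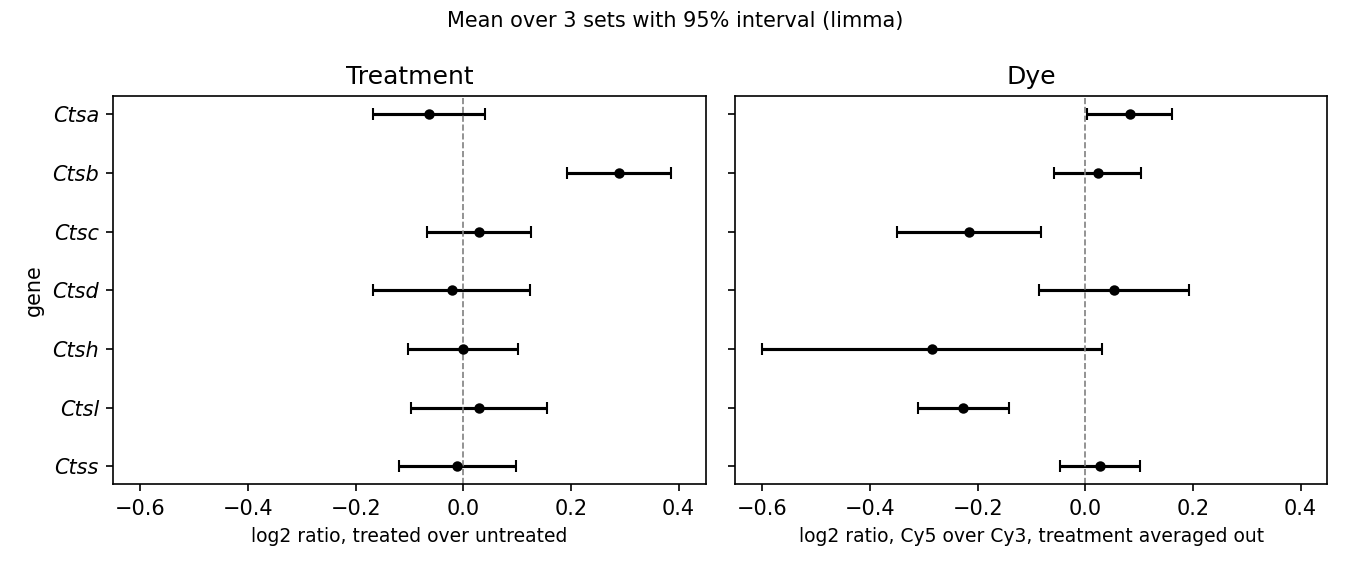
Mean log2 ratio over the 3 sets with its 95% interval for the 7 tested cathepsin genes, for treated over untreated RNA (left) and for Cy5 over Cy3 with the treatment averaged out (right). Ctsb at 0.29 stands apart on the left, and Ctsc, Ctsh and Ctsl lie between -0.22 and -0.29 on the right.

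Ctss, whose product cathepsin S cuts the invariant chain of class II complexes and keeps working near neutral pH, averaged close to 0. Its ratios were 0.041, 0.074 and -0.063 in Cy5 and -0.012, 0.00025 and -0.10 in Cy3, and these ranges overlapped. The mean was -0.011 ± 0.064 (95% interval -0.12 to 0.097, adjusted p = 0.901). Its 2 probes averaged -0.010 and -0.012. Ctsz, which encodes the carboxypeptidase cathepsin Z, had 1 probe, with a ratio on 3 arrays: 0.071 and 0.40 on the 2 arrays of set 1 and -0.035 on the Cy3 array of set 2. These arrays do not give one direction, and with incomplete probes included Ctsz averaged 0.099 over 2 sets (limma, adjusted p = 0.586).

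Ctsd, whose product cathepsin D is the main aspartic protease of the lysosome, gave 0.10, 0.050 and -0.057 in Cy5 and 0.16, -0.29 and -0.10 in Cy3. The values crossed 0 in both orientations, and the mean was -0.022 ± 0.14 (95% interval -0.17 to 0.12, adjusted p = 0.849). The set averages had an SD of 0.28 on probe 2680 and of 0.049 on probe 10969. Ctsa, whose product also protects beta-galactosidase and neuraminidase 1 in a complex, gave -0.017, 0.11 and -0.032 in Cy5 and -0.18, -0.11 and -0.15 in Cy3. Of its 6 arrays 5 were below 0, and the mean was -0.064 ± 0.052 (95% interval -0.17 to 0.040, adjusted p = 0.393). The partners of cathepsin A in that complex were Neu1, which was called lower (-0.18 ± 0.048, adjusted p = 0.0435), and Glb1 at -0.036 ± 0.029 (adjusted p = 0.616). Neu1 was below 0 on all 6 arrays but lost its call without set 1 (-0.20), without set 2 (-0.18) and without set 3 (-0.16).

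Over the 6 members that were not called, the 95% intervals together ran from -0.17 to 0.16. A change of 1.22-fold, the size seen for Ctsb, lay outside each of these intervals. They rest on set averages, which can vary less than single arrays, so they may be too narrow. For Ctsh the SD was 0.046 over set averages but 0.31 over the Cy5 arrays and 0.24 over the Cy3 arrays. Among the 21 pairs of tested members, 6 differed, and all 6 were pairs with Ctsb. Ctsb exceeded Ctsa by 0.35, Ctsd by 0.31, Ctss by 0.30, Ctsh by 0.29, and Ctsc and Ctsl by 0.26 each. Subtracting the other member from every gene, the adjusted p ran from 0.00391 for Ctsa to 0.0487 for Ctsl (limma), in fits that called 13.6% (Ctsa), 13.4% (Ctsc), 7.53% (Ctsd), 12.6% (Ctsh), 9.69% (Ctsl) and 9.06% (Ctss) of all genes. With Ctsb subtracted in turn, 91% of all genes were called, so differing from Ctsb was common. Without set 1 only 2 of the pairs were still called. The other 15 pairs differed by -0.093 to 0.051, with intervals reaching from -0.25 to 0.22, and none passed (lowest adjusted p = 0.209). On the Cy3 arrays alone 3 pairs were called, of which 1 was with Ctsb, and in the others Ctsa was below Ctsc by 0.39 and below Ctsl by 0.40.

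The genes whose 6 array ratios were most like those of Ctsb were Cyth2, an exchange factor for ARF GTPases (0.31 ± 0.028), Spata5, an ATPase gene (0.29 ± 0.034), and Tnfrsf1b, a TNF receptor gene (0.26 ± 0.032). Their root mean square differences from Ctsb over 6 arrays were 0.054, 0.062 and 0.064. Of the 16 protein-coding genes directly beside the 8 members in the RefSeq order, 9 were tested, 1 rose and 2 fell. Over all genes tested, 6.96% were called higher and 6.21% lower, and 9 genes are too few to set against these shares. Whether neighbours change together with the members was not tested. Fdft1, the squalene synthase gene beside Ctsb, rose by 0.23 ± 0.093 (adjusted p = 0.0311), with ratios of 0.29, 0.37 and 0.13 in Cy5 and 0.20, 0.27 and 0.15 in Cy3, so all 6 arrays were above 0. It did not pass without set 1 (0.23) or without set 2 (0.19). Cdk20, a cyclin-dependent kinase gene beside Ctsl, fell by 0.49 ± 0.090 (adjusted p = 0.00183), and Neurl2, beside Ctsa, fell by 0.23 ± 0.038 (adjusted p = 0.0151). Neurl2 lost its call without set 1 (-0.22) and without set 3 (-0.23).

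Of 12 tested genes among the other cathepsins, legumain and napsin, 0 rose and 1 fell, with a median of -0.011, against -0.0092 over all genes. The 1 was Napsa, an aspartic protease gene, with ratios of -0.30, -0.37 and -0.41 in Cy5 and -0.27, -0.42 and -0.47 in Cy3. All 6 were below 0, and the mean was -0.37 ± 0.079 (adjusted p = 0.00434). Lgmn, whose product legumain cleaves cathepsin precursors, averaged -0.090 ± 0.063 (adjusted p = 0.257), and Ctse, an aspartic cathepsin gene, averaged -0.095 ± 0.063 (adjusted p = 0.235). Of 13 inhibitor genes none was called (limma), with 2 at an unadjusted p under 0.05 and a median of 0.0016. Cst3, the secreted inhibitor cystatin C, averaged -0.12 ± 0.044 (adjusted p = 0.117) and was called with the 6 arrays as separate samples (adjusted p = 0.0484), and the stefin gene Stfa3 averaged 0.14 ± 0.052 (adjusted p = 0.0848).

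**Figure D3:**
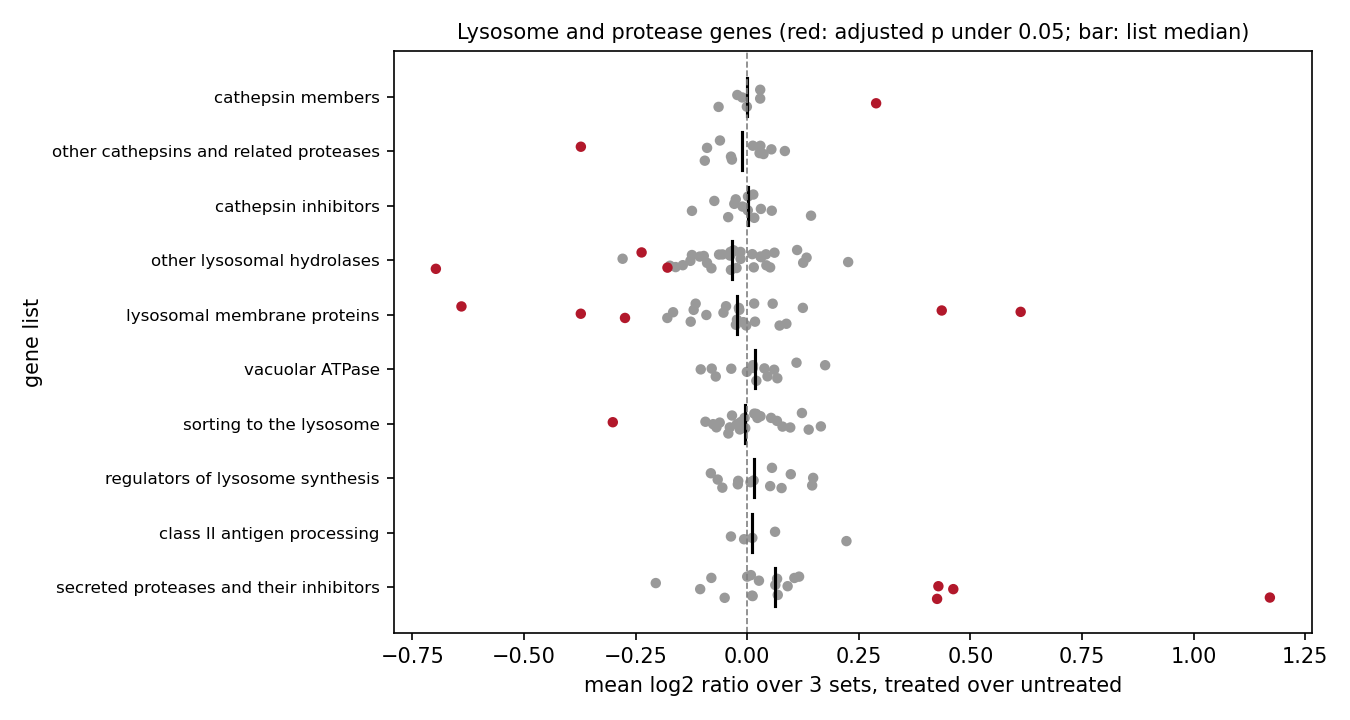
Mean log2 ratio of treated over untreated RNA over 3 sets (horizontal axis) for each tested gene of the cathepsin members and 9 gene lists (vertical axis), in red where the adjusted p was under 0.05, with a bar at the list median. All list medians lie between -0.034 and 0.063. The called genes on the list of secreted proteases and their inhibitors, which also holds cell-surface proteins, all lie to the right.

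Among 36 other lysosomal hydrolases, 0 rose and 3 fell, with a median of -0.034. Hyal1, a hyaluronidase gene, fell most, by 0.70 ± 0.15 (adjusted p = 0.0013), with ratios of -0.41, -0.39 and -0.87 in Cy5 and -0.79, -0.85 and -0.88 in Cy3. The peptidase gene Dpp7 (-0.24 ± 0.12, adjusted p = 0.0411) and Neu1 were the others, and Dpp7 lost its call without set 1 (-0.22) and without set 3 (-0.19). Psap, the saposin precursor gene, averaged -0.28 ± 0.31 (adjusted p = 0.169). Of 25 tested genes on the list of lysosomal membrane proteins, 2 rose and 3 fell, with a median of -0.023. Mcoln1, the calcium channel mucolipin 1, fell by 0.64 ± 0.15 (adjusted p = 0.00177), but with zeros kept as ratios it averaged -0.37 and did not pass (adjusted p = 0.0929). Pip4p2, a phosphoinositide phosphatase gene, fell by 0.37 ± 0.047. Cln8, which acts in the export of lysosomal enzymes and not in the lysosomal membrane, fell by 0.27 ± 0.022. Cln8 did not pass in the fit that omitted set 1 (-0.27). It did not pass on the Cy5 arrays alone either (-0.15, limma, adjusted p = 0.134), where the Cy3 arrays averaged -0.40. Abcb9, a peptide transporter gene, rose by 0.61 ± 0.078 (adjusted p = 0.000616), or by 0.31 with zeros kept as ratios (adjusted p = 0.0319). Slc15a3, a histidine and peptide transporter gene, rose by 0.44 ± 0.025. Mcoln1, Pip4p2 and Cln8 were below 0 on all 6 arrays, and Abcb9 and Slc15a3 were above 0 on all 6. The main structural members of the lysosomal membrane were near 0, with Lamp1 at -0.047 ± 0.044 and Lamp2 at 0.088 ± 0.074, and neither passed.

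None of the 14 tested genes of the vacuolar ATPase, the pump that acidifies lysosomes, was called (limma) and 0 had an unadjusted p under 0.05. Their median was 0.017, and Atp6v0a1 (0.17 ± 0.22) and Atp6v1d (0.11 ± 0.083) had the largest ratios. For sorting to the lysosome, 1 of 26 fell and 0 rose, with a median of -0.0049. It was the adaptor subunit gene Ap3m2, which fell by 0.30 ± 0.043 (adjusted p = 0.0061), with means of -0.47 and -0.13 in the 2 orientations, and it was not called with the 6 arrays as separate samples (adjusted p = 0.0967). Ap1g1 averaged 0.17 ± 0.059 and was not called. The mannose 6-phosphate receptor genes M6pr (0.14 ± 0.022, adjusted p = 0.0765) and Igf2r (0.030 ± 0.054) did not pass. Of 13 regulators of lysosome synthesis none was called (limma), with 1 at an unadjusted p under 0.05 and a median of 0.015. Tfeb averaged 0.15 ± 0.29 (adjusted p = 0.417), and the calcineurin subunit gene Ppp3cb averaged 0.15 ± 0.079. Of 5 genes of class II antigen processing none passed (limma), with 1 at an unadjusted p under 0.05 and a median of 0.012. Cd74, the invariant chain that cathepsin S cuts, averaged 0.22 ± 0.14 (adjusted p = 0.0656) and was called with the 6 arrays as separate samples (adjusted p = 0.03). Over these 8 lists together, 2 of 144 genes rose and 8 fell, or 6.94%, against 13.2% of all genes. With the 6 arrays as separate samples 16 of the 144 were called, where 17.3% of all genes were.

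Of 19 tested genes on the list of secreted proteases and their inhibitors, 4 rose and 0 fell. Over all genes, 6.96% rose and 6.21% fell. The list also holds proteins of the cell surface, among them the products of Plaur and Adam17. Plaur, the urokinase receptor, gave 1.26, 1.20 and 1.04 in Cy5 and 1.33, 1.07 and 1.12 in Cy3. All arrays lay above 1, and the mean was 1.17 ± 0.11 (adjusted p = 7.32e-05). Its ligand gene Plau rose by 0.43 ± 0.10, the sheddase gene Adam17 by 0.46 ± 0.035 and the collagenase gene Mmp13 by 0.43 ± 0.17. Mmp13 did not pass on the Cy3 arrays alone (0.54, limma, adjusted p = 0.0548) or with zeros kept as ratios (0.23, adjusted p = 0.0746). Nor did Mmp13 pass with incomplete probes included (0.40, adjusted p = 0.0888). The list median was 0.063.

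**Figure D4:**
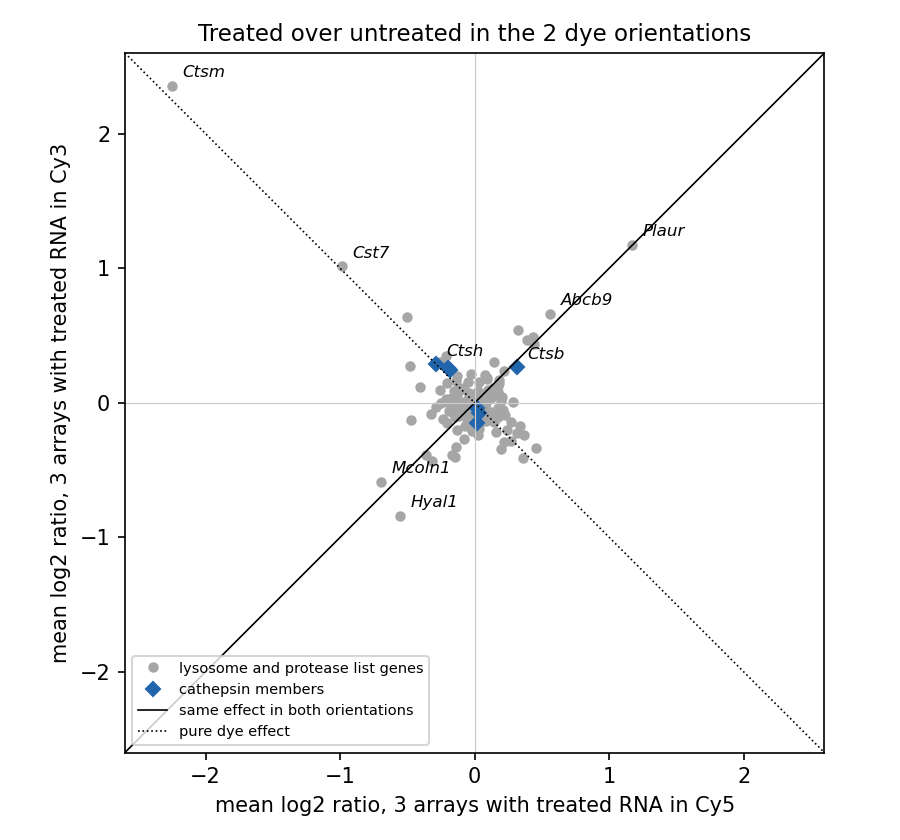
Mean log2 ratio of treated over untreated RNA on the 3 Cy5 arrays (horizontal axis) against the 3 Cy3 arrays (vertical axis), for the tested cathepsin members (blue diamonds) and the lysosome and protease list genes (grey). Genes on the solid line had the same ratio in both orientations, as Plaur (1.17 and 1.18) and Ctsb (0.31 and 0.27), and genes on the dotted line had opposite ratios, as Ctsm (-2.25 and 2.36) and Ctsh (-0.29 and 0.28).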

How the data were processed

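The authors deposited log2 ratios of the 2 channels of each array, 1 for each of 16281 probes. The base was read from the values; on each array at least 99.97% of values other than 0 become log10 values with 6 digits on changing from base 2 to base 10 (tolerance 1e-12 of the value). Scanner, background correction and normalization are not given in the sources used here; array medians of 0.0043 to 0.016 show centring near 0 by an unknown method. The series title has RAW 264.4 where the sample titles have RAW 264.7. An exact 0 (8.99% to 23.9% of values per array) was taken as no ratio. The Cy3 arrays were multiplied by -1, the 9968 probes that had 1 symbol and were measured on all 6 arrays gave 8331 gene means, and the 2 arrays of a set number were averaged, since the labels number both orientations alike. limma 3.58.1 then tested whether the 3 averages differ from 0 (moderated, two-sided, with 2 residual degrees of freedom), and genes were called at a Benjamini-Hochberg adjusted p under 0.05 over all genes. Intervals are limma's at 95%. The script was tested on simulated data. Named were all members and, per list, called genes (up to 6) and the 2 largest ratios; other names were chosen after values were seen. The members and lists were chosen with earlier results of these data known. Probe coordinates are not given, since the probes' build is unnamed.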

Additional observations from a re-analysis of the deposited data

Results flagged for a closer look

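Ctsc, Ctsh and Ctsl gave opposite signs in the 2 dye orientations on their probes with a ratio on every array, whereas Ctsl probe 4719 and set 3 of Ctsh probe 10542 did not: Cy5 over Cy3 averaged -0.22, -0.29 and -0.23. The difference between orientations was tested and did not pass for the 3 on set averages, and it passed for Ctsc and Ctsl with the 6 arrays as separate samples. Ctsm and Cst7, named after their values were seen, had the largest such difference in the lists and passed the test. For Ctsm, a cathepsin gene of the placenta, Cy5 over Cy3 averaged -2.30 ± 0.15 (SD, n = 3 sets; limma, adjusted p = 0.0152), while treated over untreated RNA averaged 0.054 (adjusted p = 0.518). Before turning, its probe 7456 gave -2.26, -2.47 and -2.01 on the Cy5 arrays and -2.35, -2.43 and -2.30 on the Cy3 arrays, and its probe 5567 had no ratio on any array. For Cst7, the cystatin F gene, Cy5 over Cy3 averaged -0.999 ± 0.016 (adjusted p = 0.0152) and treated over untreated RNA 0.014. This came from probe 9092, between -2.16 and -1.63 on the 6 arrays, whereas probe 12688 lay between -0.22 and 0.25. Groups of 3 arrays were too small for a search for single arrays that stand apart.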

How the results depend on the processing

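Ctsb stayed above 0 in all alternatives run and passed in all but the one without set 1. With treated RNA in Cy3 alone Ctsb passed narrowly (0.27, limma, adjusted p = 0.0491), and with Cy5 alone its adjusted p was 0.028. It ranged from 0.28 to 0.30 with a set left out, and the count of called cathepsins from 0 to 1. The called genes numbered 499 to 832 with a set left out, 649 with treated RNA in Cy3 alone, 522 with zeros kept as ratios and 655 with incomplete probes included, against 1097. Same-numbered arrays correlated at -0.0077, -0.28 and -0.094 after removing orientation means, and arrays of unlike number at -0.20 to 0.21. With 3 arrays per orientation these values cannot decide whether the set numbers pair the arrays. Where such a correlation is negative, set averages can vary less than single arrays. With no replicate block (6 arrays, dye term) 1439 genes, Ctsb among the cathepsins (0.29), 16 lysosome list genes and 277 dye effects were called. With a random replicate block 497 dye effects were called, against 5, 0 to 24 with a set left out, 0 with zeros kept and 3 after quantile normalization. Differing pairs of cathepsins numbered 2 to 5 with a set left out and 3 with Cy3 alone, where 1 of them was with Ctsb. Uncalled members near 0 changed sign: with a set left out Ctsd ranged from -0.099 to 0.027, Ctsh from -0.026 to 0.018, Ctsl from -0.030 to 0.063 and Ctss from -0.035 to 0.026. With Cy5 alone Ctsa was at 0.019, Ctsc -0.19, Ctsd 0.031, Ctsl -0.20 and Ctss 0.017. Ctsh was at 0.28 with Cy3 alone and 0.017 after quantile normalization, Ctsc probe 6341 at -0.0067 and Ctsd probe 10969 at 0.021. None of these passed. With Cy5 alone Ctsm (-2.25, adjusted p = 0.000325) and Cst7 (-0.99, adjusted p = 0.000999) changed sign and were called lower (limma). With Cy3 alone both were called higher (2.36 and 1.01). Lum changed sign with Cy5 alone (0.20) and H2-Eb1 with Cy3 alone (-0.33), and neither passed there. With a set left out Cst7 ranged from -0.019 to 0.052, Krt5 from -0.048 to 0.29, Lum from -0.11 to 0.0024 and Tfeb from -0.018 to 0.24. The causes were not tested, and leaving out a set leaves fewer averages to test. Of 88 values of the 7 tested cathepsins under the alternatives, 72 kept direction and side of the threshold, 1 lost a call and 15 changed sign. Of 496 values of 46 other named genes, Ctsz included, 427 kept both, 54 lost a call, 7 gained one and 8 changed sign. Lamp1, Lamp2, Glb1, M6pr and Igf2r, also named above, were not among these genes.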
